A study of Rattus norvegicus with 30 samples.

Results

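Cytosolic sulfotransferases are described here in the livers of Wistar/Han rats exposed to DE71, a commercial flame-retardant mixture of polybrominated diphenyl ethers (PBDE). The members are the 7 genes Sult1e1, Sult1b1, Sult1a1, Sult1c2, Sult1c3, Sult2a1 and Sult4a1, picked out by gene symbol. They were chosen with earlier results of these data known, and they leave out 7 further genes with a Sult symbol. Each member was read by 1 probe set. The members are thus 7 of the 14217 genes that had a probe set of their own and 7 of 31042 probe sets tested. A further probe set that names Sult1c2 together with another gene was not counted. Each of 6 groups held 5 livers, and 1 array was made per liver. Pups were taken on postnatal day 22 and were male controls, female controls, male PBDE pups and female PBDE pups. Adult males were taken at week 13 as controls and PBDE animals; no adult females were analysed here.

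Dams received 0 or 50 mg/kg by gavage in corn oil from gestation day 6 to postnatal day 21. Pups were dosed directly as well until postnatal day 21, and after weaning the animals meant for week 13 were dosed on 5 days per week. The source labels call the controls untreated, whereas the protocol gives them a dose of 0 mg/kg. No 2 pups shared a dam, and within a dose group no 2 adults did. All groups carried the same strain background and no transgene, and exposure in the womb, through milk and by gavage are combined in every PBDE group.

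Sulfotransferases move a sulfonate group from the donor PAPS to a hydroxyl or amino group. The product is more soluble in water and is usually exported or excreted. In liver the SULT1 family acts on phenols, oestrogens and thyroid hormones, and the SULT2 family acts on hydroxysteroids and bile acids. Sult1e1, oestrogen sulfotransferase, inactivates oestrogens; in adult rat liver it is known as a male-biased gene.

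The arrays had medians between 5.72 and 5.77 (log2), and each correlated with the other arrays of its group at 0.988 to 0.994 on average. Hepatocyte markers were high in all 6 groups, with array means of the 4 measured (of 5 listed) from 14.46 to 14.82. Neuron and adipose markers lay below the median of all values, 5.74, for 4 of 4 and 3 of 3 genes in every group. Of the exocrine pancreas markers 3 of 4 lay below it in every group, while Cela1 had means of 10.66 to 11.15. Among the intestine markers Fabp2 had means of 6.70 to 7.45. Cdh17 had 5.34 to 6.24 in the pup groups and 9.88 and 9.77 in control and PBDE adults. Whether any of this signal came from other tissue was not tested. The array names carry a prefix that splits the arrays into 2 batches. Control pups of both sexes and male PBDE pups lay in the first, and female PBDE pups and both adult groups in the second. Male-pup and adult dose comparisons therefore lie within a batch. The dose comparison in female pups, the sex comparison in PBDE pups, the sex-by-dose term, which holds the female dose comparison, and the age comparison span both batches, so batch and group cannot be told apart there.

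The windows around the annotated starts of the 4 members called in a pup dose comparison are shown first: Sult1e1 and Sult1b1, which rose and lie close to each other, and Sult1a1 and Sult1c2, which fell. They come from RefSeq's promoter windows on the GRCr8 build, matched for 6 of the 7 members (all but Sult4a1), and run from 250 bases before to 50 bases after the start, 5′ to 3′ on the gene's strand. Sult1e1 is at chr14:20701230-20701529 on the plus strand, Sult1b1 at chr14:20771667-20771966 on the plus strand, Sult1a1 at chr1:190706063-190706362 on the minus strand, and Sult1c2 at chr9:7436731-7437030 on the plus strand. Capitals mark nuclear receptor half-sites, searched on both strands. The letters searched were AGGTCA, its variant AGTTCA, the variant GGGTCA, and the variant GGTTCA.
Sult1e1: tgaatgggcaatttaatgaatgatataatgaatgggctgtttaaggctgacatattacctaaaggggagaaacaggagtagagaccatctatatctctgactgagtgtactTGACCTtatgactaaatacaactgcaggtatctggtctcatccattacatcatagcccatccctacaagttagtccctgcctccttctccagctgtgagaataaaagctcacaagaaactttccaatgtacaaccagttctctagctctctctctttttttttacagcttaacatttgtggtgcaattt
Sult1b1: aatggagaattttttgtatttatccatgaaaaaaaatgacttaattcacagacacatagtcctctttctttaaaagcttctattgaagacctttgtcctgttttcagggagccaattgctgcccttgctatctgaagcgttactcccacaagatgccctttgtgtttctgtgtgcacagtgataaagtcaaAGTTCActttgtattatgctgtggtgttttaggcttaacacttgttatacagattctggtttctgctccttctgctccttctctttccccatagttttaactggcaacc
Sult1a1: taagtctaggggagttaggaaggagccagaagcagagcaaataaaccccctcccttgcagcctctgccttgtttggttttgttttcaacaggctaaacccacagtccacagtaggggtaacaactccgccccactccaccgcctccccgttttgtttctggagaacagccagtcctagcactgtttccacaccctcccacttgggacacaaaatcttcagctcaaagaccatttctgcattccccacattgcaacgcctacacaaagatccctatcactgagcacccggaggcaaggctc
Sult1c2: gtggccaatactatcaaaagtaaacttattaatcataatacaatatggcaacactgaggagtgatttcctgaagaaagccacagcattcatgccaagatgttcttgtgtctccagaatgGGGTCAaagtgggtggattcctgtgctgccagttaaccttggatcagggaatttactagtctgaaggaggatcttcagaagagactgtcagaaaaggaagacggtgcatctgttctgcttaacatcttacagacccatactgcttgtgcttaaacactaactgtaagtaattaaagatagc

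The Sult1e1 window held 1 half-site, TGACCT on the shown strand, at positions -139 to -134 from the start. The Sult1b1 window held AGTTCA at positions -59 to -54, the Sult1c2 window held GGGTCA at positions -131 to -126, and the Sult1a1 window held none. Such half-sites stood in 44.4% of 33469 promoter windows of the same length, so their presence in 1 window is common. The search took exact matches only, so repeats with a mismatch in either half-site were not looked for. No exact pair of half-sites as a direct repeat 1 or 4 bases apart, an inverted repeat without a gap or an everted repeat 6 bases apart was in these 4 windows. The same was true of GCGTG, the core bound by the aryl hydrocarbon receptor (29.7% of windows, both strands), and of TTCNNNGAA, the pattern bound by STAT factors (8.87%). Of the 6 members with a window, Sult2a1 alone held the inverted repeat without a gap, a pattern in 0.0508% of windows. In RefSeq, Sult1d1 stands between Sult1e1 and Sult1b1 on chromosome 14. Sult1c2 and Sult1c3 are neighbours on chromosome 9, with Sult1c2al1 between them, and Sult2a6, Sult2a1 and Sult2a2 are neighbours on chromosome 1.

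Sult1e1 and Sult1b1 rose in PBDE pups of both sexes, and Sult1a1 fell in both. Sult1c2 also fell in male pups. In female pups dose and array batch cannot be told apart. The members were chosen with earlier results of these data known, so their counts are not those of a neutral set of genes. Of 6 other cytosolic sulfotransferases measured, 0 were called in any of the 3 dose comparisons. In male pups 2 of the 7 members rose and 2 fell, where 5.33% of all probe sets were called in either direction. In female pups 2 rose and 1 fell, against 4.24% of all probe sets. In adult males 0 of 7 passed the test with limma, against 2.98% of all probe sets; 1 member, Sult1a1, had an unadjusted p under 0.05. A change is called here when its limma p-value, adjusted by Benjamini-Hochberg over all 31042 probe sets, is under 0.01 in pups or 0.05 in adults. The median log2 difference of the 7 members was 0.08, 0.04 and 0.01 in male pups, female pups and adults, beside 0.01, 0.00 and 0.01 for all probe sets.

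**Figure D1:**
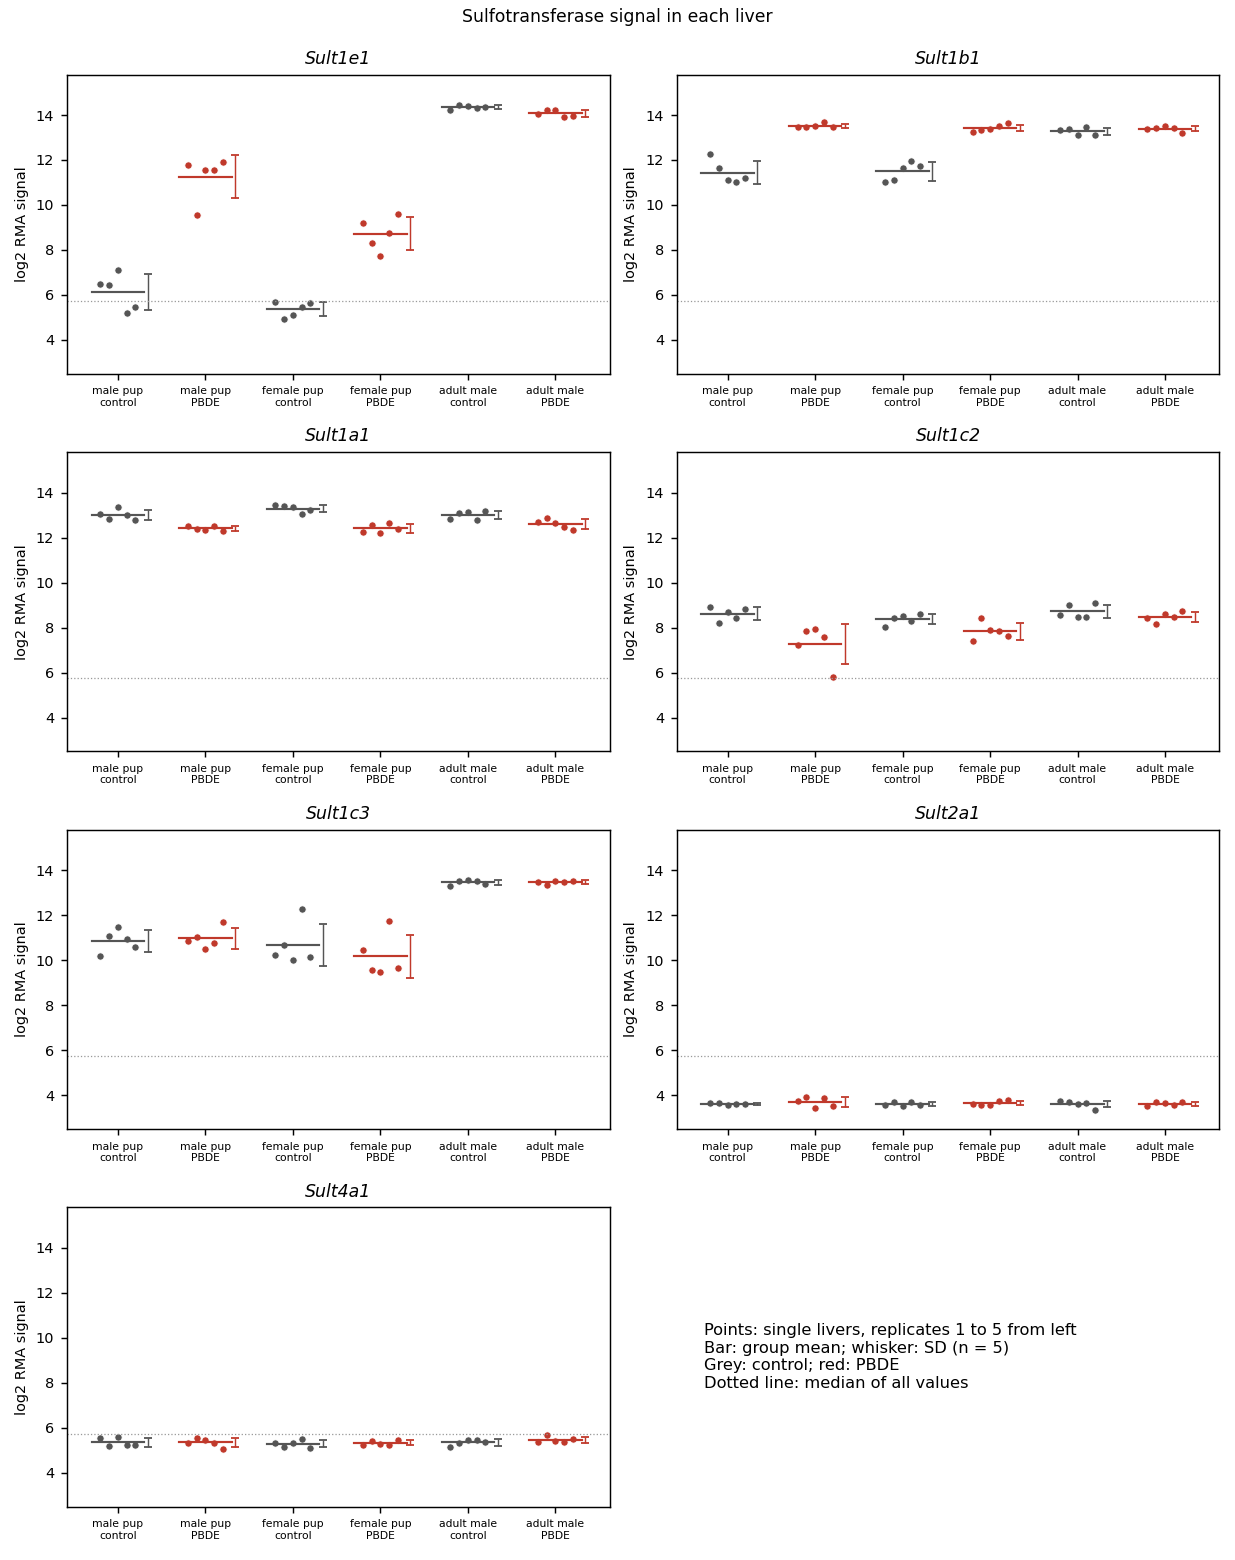
Log2 RMA signal (vertical axis) of the 7 sulfotransferase probe sets in each of 30 livers, by group (horizontal axis). Points are livers, bars are group means, whiskers are SD (n = 5) and the dotted line is the median of all values; Sult1e1 spans 4.94 in a female control pup to 14.43 in an adult control, whereas Sult2a1 and Sult4a1 stay below the dotted line in all 6 groups.

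Sult1e1 was low in control pups and much higher after PBDE. The 5 male control pups gave log2 signals of 6.48, 6.43, 7.10, 5.20 and 5.47, a mean of 6.14 ± 0.79 (SD, n = 5). The 5 male PBDE pups gave 11.77, 9.56, 11.54, 11.54 and 11.89, a mean of 11.26 ± 0.96. Every male PBDE pup lay above every male control pup, and replicate 2 stood below the other PBDE males. The log2 difference was 5.13 ± 0.35 (SE), which is 34.9-fold (95% interval 4.40 to 5.85 on the log2 scale; limma adjusted p = 2.95e-11). It was the third largest increase among the 14217 genes in male pups.

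Female control pups had Sult1e1 signals of 5.69, 4.94, 5.12, 5.46 and 5.65, with a mean of 5.38 ± 0.33 that lies below the median of all values. Female PBDE pups had 9.18, 8.32, 7.74, 8.74 and 9.61, a mean of 8.72 ± 0.73. The groups did not overlap. The log2 difference was 3.34 ± 0.35 (SE), or 10.2-fold (limma adjusted p = 1.98e-07), the seventh largest increase in female pups. Female control and PBDE pups lay in different array batches, so dose and batch cannot be told apart in this difference. Where a control signal lies near the low end of the array scale, a fold change may understate the change in RNA.

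Sult1e1 also differed between male and female PBDE pups, which lay in different array batches, so sex and batch cannot be told apart here. The male mean exceeded the female mean by 2.54 ± 0.35 on the log2 scale (5.82-fold, limma adjusted p = 1.97e-04), where 0.0451% of all probe sets were called. The groups touched, since the lowest male PBDE pup (9.56) lay just under the highest female PBDE pup (9.61). With only these 2 groups in the fit, the adjusted p was 0.101. In control pups the male mean was higher by 0.76 ± 0.35, with an adjusted p of 0.579 and overlapping arrays. No member of the 7 was called with limma between control pups of both sexes, where 0.0354% of all probe sets were; 2 had an unadjusted p under 0.05. The male minus the female dose effect was 1.78 ± 0.50 (95% interval 0.76 to 2.80), a sex-by-dose difference that spans both batches and was not called (limma adjusted p = 0.741, between 0.124 and 1.00 over its alternatives). No probe set was called for sex by dose in this fit (0%); 1576 of the 31042 probe sets, and 2 of the 7 members, had an unadjusted p under 0.05. Other fits called 0 or 1 probe set.

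In adult males Sult1e1 was near the top of the array scale, whose highest value was 15.46. Adult controls had 14.24, 14.43, 14.41, 14.31 and 14.37 (mean 14.35 ± 0.08), and PBDE adults had 14.06, 14.21, 14.21, 13.91 and 13.96 (mean 14.07 ± 0.14). All PBDE adults lay below all control adults, by little. The difference of -0.28 ± 0.35 (95% interval -1.005 to 0.44) was not called, with a limma adjusted p of 0.757. This SE and interval rest on 1 spread shared by all 6 groups and are wider than the adult arrays' own spread. The pup SDs were 0.79, 0.33, 0.96 and 0.73 in male control, female control, male PBDE and female PBDE pups. With only the adult groups in the fit the limma adjusted p was 0.144. The dose effect in adult males minus that in male pups was -5.41 ± 0.50 (limma adjusted p = 1.13e-07), and 1.87% of all probe sets were called for that term. Whether saturation near the top of the scale narrows differences in adults was not tested.

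The group means of Sult1e1 fell in the order adult control, adult PBDE, male PBDE pups, female PBDE pups, male control pups, female control pups. Neighbours in that order overlapped for male and female PBDE pups and for male and female control pups. Between adult and pup control males the gap was 8.22 ± 0.35 on the log2 scale (298-fold, limma adjusted p = 6.00e-17). The male PBDE pups lay 2.81 below PBDE adults and so between the levels of pup and adult controls. Age and array batch cannot be told apart in the comparison of control males.

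Sult1b1, which sulfonates thyroid hormones and small phenols, rose in PBDE pups of both sexes, whose means were no lower than those of adults. Male control pups had 12.26, 11.66, 11.09, 11.02 and 11.18 (mean 11.44 ± 0.52), and male PBDE pups had 13.49, 13.47, 13.51, 13.68 and 13.47 (mean 13.52 ± 0.09). Female control pups had 11.01, 11.10, 11.64, 11.97 and 11.72 (mean 11.49 ± 0.41), and female PBDE pups had 13.26, 13.33, 13.39, 13.50 and 13.64 (mean 13.43 ± 0.15). No PBDE pup overlapped a control pup of its sex, and the PBDE pups varied less than the controls.

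The Sult1b1 difference was 2.08 ± 0.17 (SE) in male pups (4.23-fold, limma adjusted p = 2.15e-09) and 1.94 ± 0.17 in female pups (3.83-fold, limma adjusted p = 7.94e-09). The female difference spans both array batches. The sex-by-dose difference was 0.14 ± 0.24 (95% interval -0.36 to 0.64) and was not called. Adult controls had 13.32, 13.37, 13.12, 13.45 and 13.11 (mean 13.28 ± 0.15), and PBDE adults had 13.39, 13.41, 13.50, 13.42 and 13.20 (mean 13.38 ± 0.11). The adult groups overlapped, and their difference of 0.11 ± 0.17 (95% interval -0.25 to 0.46) was not called. The adult dose effect minus the male pup dose effect was -1.97 ± 0.24 (limma adjusted p = 2.27e-05). In control males the adult mean exceeded the pup mean by 1.83 ± 0.17 (3.56-fold, limma adjusted p = 3.87e-09). The 4 groups with high Sult1b1, both PBDE pup groups and both adult groups, overlapped between neighbours in order, and both control pup groups lay below them.

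Sult1a1, the main phenol sulfotransferase of liver, was strongly expressed in every group and fell in PBDE pups. Male control pups had 13.06, 12.84, 13.37, 13.00 and 12.80 (mean 13.01 ± 0.23) and male PBDE pups 12.53, 12.38, 12.34, 12.52 and 12.30 (mean 12.42 ± 0.10). Female control pups had 13.46, 13.39, 13.34, 13.04 and 13.22 (mean 13.29 ± 0.16) and female PBDE pups 12.27, 12.54, 12.19, 12.67 and 12.37 (mean 12.41 ± 0.20). All PBDE pups lay below all controls of their sex.

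The Sult1a1 log2 difference was -0.59 ± 0.11 (SE) in male pups (1.51-fold lower, limma adjusted p = 6.77e-04) and -0.88 ± 0.11 in female pups (1.84-fold lower, limma adjusted p = 4.42e-06). Here too the female difference spans both array batches. Adult controls had 12.83, 13.08, 13.13, 12.77 and 13.17 (mean 12.99 ± 0.18), and PBDE adults had 12.68, 12.88, 12.65, 12.49 and 12.34 (mean 12.61 ± 0.21), with overlap. The adult difference of -0.39 ± 0.11 had a limma adjusted p of 0.0569 and was not called; over its alternatives the adjusted p ran from 0.0236 to 0.172. It passed 0.05 without control adult replicate 1 (0.0483), without control adult replicate 4 (0.0380) or without PBDE adult replicate 2 (0.0236). The dose effect did not differ by a called amount between ages (0.21 ± 0.16, 95% interval -0.12 to 0.53) or sexes (0.29 ± 0.16, 95% interval -0.04 to 0.62). Adult and pup control males had nearly the same mean (difference -0.02 ± 0.11).

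**Figure D2:**
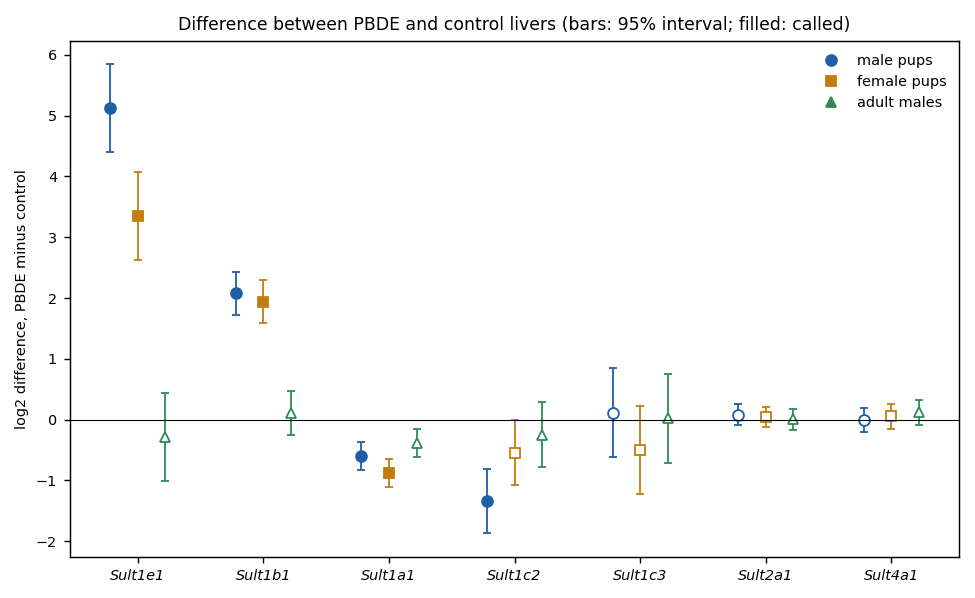
Log2 difference between PBDE and control livers (vertical axis) for the 7 members in male pups, female pups and adult males; bars are 95% intervals of the limma fit and filled symbols passed the test. Sult1e1 and Sult1b1 lie far above 0 in pups of both sexes, at 5.13 and 3.34 and at 2.08 and 1.94, and their adult intervals include 0.

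Sult1c2 belongs to the SULT1C group. Male control pups had 8.90, 8.21, 8.71, 8.43 and 8.81 (mean 8.61 ± 0.29) and male PBDE pups 7.24, 7.83, 7.93, 7.59 and 5.78 (mean 7.27 ± 0.88). All male PBDE pups lay below the controls, and replicate 5 was lowest. The log2 difference was -1.34 ± 0.26 (2.53-fold lower, limma adjusted p = 8.04e-04), -0.97 without PBDE male pup replicate 5, and the adjusted p was 0.0241 with only the male pups in the fit, which misses 0.01. Female control pups had 8.03, 8.42, 8.52, 8.31 and 8.62, and female PBDE pups had 7.40, 8.42, 7.91, 7.84 and 7.61, with overlap; the difference was -0.54 ± 0.26 (adjusted p = 0.232, limma). Adult controls had 8.57, 9.02, 8.48, 8.47 and 9.08, and PBDE adults had 8.43, 8.16, 8.60, 8.47 and 8.74, also with overlap and a difference of -0.25 ± 0.26 (adjusted p = 0.702, limma). The age-by-dose difference was 1.09 ± 0.37 (95% interval 0.34 to 1.84) and was not called (adjusted p = 0.131, limma).

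Sult1c3 differed by age and not by a called amount with PBDE. Pups ran from 9.49 to 12.27 and adults from 13.30 to 13.59, so that no pup reached an adult. In control males the adult mean was higher by 2.60 ± 0.36 (6.07-fold, limma adjusted p = 2.38e-06). The PBDE differences were 0.12 ± 0.36 in male pups (95% interval -0.61 to 0.84), -0.50 ± 0.36 in female pups (-1.22 to 0.23) and 0.02 ± 0.36 in adults (-0.71 to 0.75). Pups of both female groups spread widely, with SDs of 0.93 and 0.95. Of the 7 members, Sult1e1, Sult1b1 and Sult1c3 were higher in adult than in pup control males, where 23% of all probe sets were called in either direction.

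Sult2a1, a hydroxysteroid sulfotransferase, ran from 3.35 to 3.92 over all 30 arrays. Sult4a1, a member known mainly from brain, ran from 5.06 to 5.68. Both lay below the median of all values in all 6 groups, and neither passed a test in any comparison. The intervals of their PBDE differences ran from -0.21 at the lowest to 0.32 at the highest on the log2 scale, but a signal this low may hold little of the gene's own RNA, so these intervals bound the signal and not the RNA.

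Over the 30 arrays Sult1e1 and Sult1b1 had r = 0.79, and Sult1b1 and Sult1a1 had r = -0.72. After group means were removed the same pairs had r = 0.23 and -0.23. The arrays share their groups, batches and normalization, so these values describe mainly how the group means are arranged. The 5 genes of 9986 candidates most like Sult1e1 over the arrays were LOC102546992, Omd, Cyp2c13, Akr1c13 and Cyp2c11, with r of 0.96, 0.96, 0.96, 0.96 and 0.95.

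Cyp2c11 and Cyp2c13 are cytochrome P450 genes known as male-specific in adult rat liver. Cyp2c13 had means of 4.81 and 9.21 in male control and PBDE pups, 4.36 and 5.09 in female control and PBDE pups, and 14.09 and 14.04 in adult control and PBDE males. Cyp2c11 had 7.10 and 9.90 in male pups, 6.92 and 8.21 in female pups, and 13.94 and 14.24 in adults. These genes were picked for their likeness to Sult1e1, so their order of group means is no separate result. Of the deviations from group means, Ppp2r5b (r = 0.62), Cyp2c13 (0.62), Rcan1 (0.61), Hao2 (0.61) and Zdhhc16 (0.61) were most like Sult1e1. They are the highest r of 9986 candidates over 30 arrays. Picking the top of so many genes can give values of this size, and whether these exceed chance was not tested.

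For Sult1b1 the likest gene over the arrays was Cyp2c7 (r = 0.94), followed by Ifi27l2b, Apoa2, Pros1 and Dhx58. Cyp2c7 had means of 9.70 and 14.27 in male control and PBDE pups, 11.15 and 14.35 in female pups, and 14.33 and 14.49 in adults. For Sult1a1 they were Fbp1 (0.88), Apoh, Slc6a6, Agxt and Gls2. Fbp1, a gluconeogenic enzyme, had 13.57 and 13.04 in male pups, 13.66 and 12.99 in female pups, and 13.49 and 13.26 in adults. For Sult1c3 they were Ust5r (0.93), Cyp2d3, Il17ra, Mup5 and Cfhr4, and for Sult1c2 Atoh8 (0.78), Cavin2, Slc38a4, Cpsf6 and Tm4sf4. The highest r was 0.56 for Sult2a1 and 0.60 for Sult4a1.

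Beside the members, 7 further genes with a Sult symbol were on the array, and 6 of the 9 in the list of other cytosolic sulfotransferases were measured. With limma 0 of these 6 passed the test in male pups, female pups or adults; 2, 3 and 1 had an unadjusted p under 0.05. Sult2a2 was uneven within groups. Male control pups ran from 6.79 to 8.16, and male PBDE pups had 11.14, 11.34, 7.65, 11.74 and 5.96. Female control pups ran from 7.21 to 8.47, and female PBDE pups had 6.93, 11.15, 11.32, 11.65 and 11.44. In all, 3 male and 4 female PBDE pups lay above every control of their sex, and 2 males and 1 female did not.

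The Sult2a2 difference was 2.15 ± 0.81 in male pups (limma adjusted p = 0.0892) and 2.75 ± 0.81 in female pups (limma adjusted p = 0.0296, above the pup threshold of 0.01). PBDE male pup replicate 5 had the lowest value of its group for both Sult2a2 (5.96) and Sult1c2 (5.78). Adults ran from 4.92 to 6.32.

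Sult2a6 was high in pups, with means of 14.08 and 13.54 in male control and PBDE pups and 14.16 and 13.71 in female control and PBDE pups. The groups did not overlap in either sex, but the differences of -0.54 ± 0.28 and -0.44 ± 0.28 were not called (limma adjusted p = 0.250 and 0.406). That SE rests on 1 spread shared by all 6 groups, and the adults varied most. The SDs were 0.11 and 0.28 in male control and PBDE pups, 0.19 and 0.11 in female ones, and 0.83 and 0.75 in adults. A fit of the pup groups alone is not given for this gene, so the missing call does not show that the pups were alike. In control males Sult2a6 was lower in adults by 2.13 on the log2 scale (-2.13 ± 0.28, limma adjusted p = 1.38e-06), the opposite direction to Sult1e1, Sult1b1 and Sult1c3. The promoter windows of Sult2a6 and Sult2a1 were identical at 292 of 300 bases. On the same arrays the Sult2a1 probe set ran from 3.35 to 3.92 and the Sult2a6 probe set from 10.63 to 14.43. The Sult2a1 probe set thus did not share the high Sult2a6 signal. Whether the Sult2a6 probe set also reads RNA of its close relatives was not tested. Sult1d1, which stands between Sult1e1 and Sult1b1, had group means from 2.95 to 3.05, below the median of all values in all 6 groups, and no call. A signal this low may hold little of its own RNA, so the missing call does not show that its RNA was unchanged. Sult1c2a was higher in adult than in pup control males by 0.61 ± 0.14 (limma adjusted p = 0.00220).

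**Figure D3:**
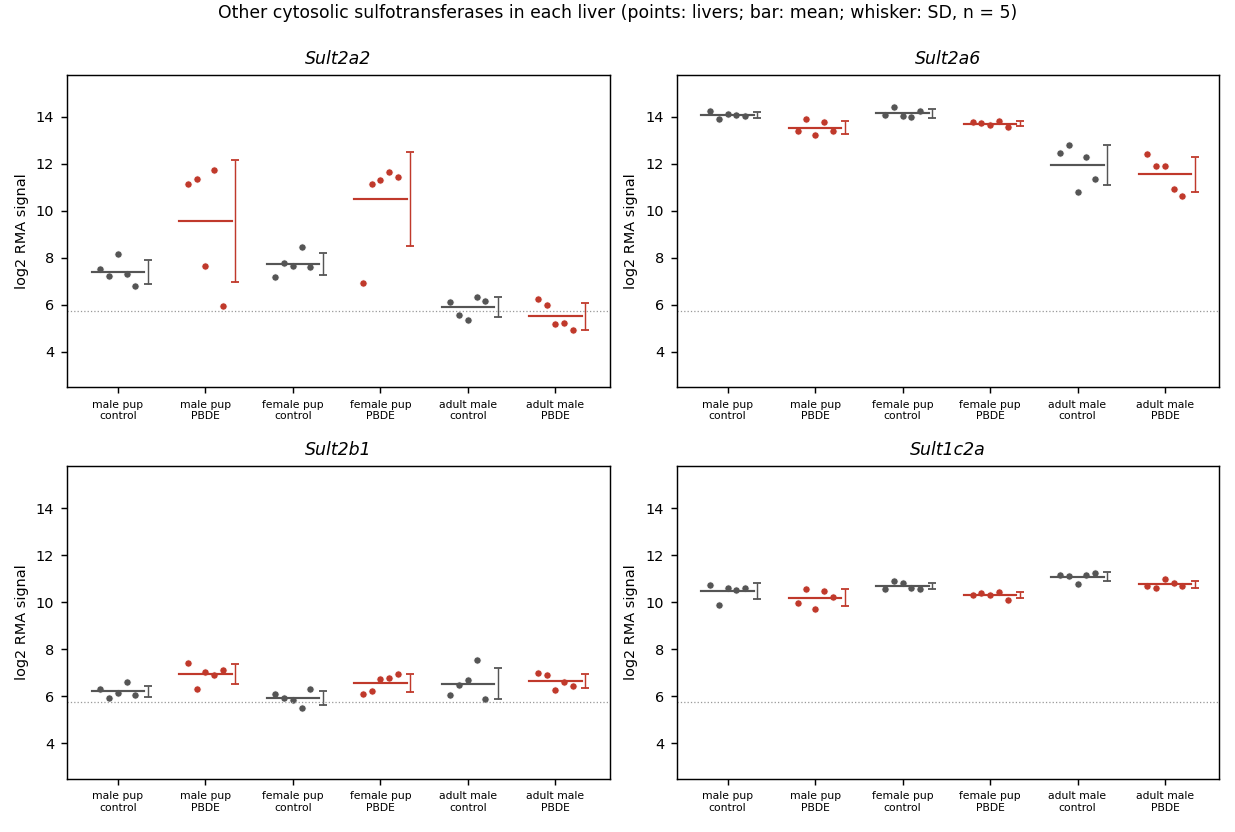
Log2 RMA signal (vertical axis) of Sult2a2, Sult2a6, the higher of both Sult2b1 probe sets and Sult1c2a in each liver, by group (horizontal axis); points are livers, bars means and whiskers SD (n = 5). Sult2a2 splits within both PBDE pup groups, with 3 of 5 males and 4 of 5 females above 11, and Sult2a6 is lower in adults than in pups.

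Genes that supply the sulfonate donor were counted next. Beside this and the lists that follow, 5.33%, 4.24% and 2.98% of all probe sets were called in male pups, female pups and adults. The lists are small, and whether their counts exceed these shares was not tested. Of 6 measured genes for synthesis, transport and breakdown of PAPS, 1 rose in each sex of pups and 0 were called in adults with limma (2 at an unadjusted p under 0.05). The gene that rose was Bpnt1, which breaks down the PAP left after transfer, by 0.33 ± 0.07 in male pups and 0.39 ± 0.07 in female pups (limma adjusted p = 0.00251 and 5.69e-04). Neither PAPS synthase was called: Papss2 differed by -0.03, -0.46 and 0.06 in male pups, female pups and adults (limma adjusted p = 0.919, 0.0251 and 0.870) and Papss1 by 0.10, -0.09 and 0.10. Of 11 measured genes of sulfate uptake and supply, 1 fell in male pups, 2 in female pups and 1 in adults. Slc13a4, a sodium-coupled sulfate transporter, fell by 1.21, 0.99 and 0.54 on the log2 scale in male pups, female pups and adults (SE 0.14; limma adjusted p = 5.13e-07, 1.38e-05 and 0.0250). Suox, which oxidises sulfite to sulfate, fell by 0.40 in female pups (limma adjusted p = 0.00978).

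Of 11 measured sulfatases and their activators, 1 rose and 1 fell in each sex of pups, and 0 were called in adults with limma (1 at an unadjusted p under 0.05). Sulf2, which removes sulfate from heparan sulfate outside the cell, fell by 1.00 and 1.16 in male and female pups (limma adjusted p = 3.58e-05 and 4.31e-06). Sumf2, a relative of the enzyme that activates sulfatases, rose by 0.47 and 0.48 (limma adjusted p = 4.97e-04 and 5.53e-04). Steroid sulfatase, Sts, which reverses oestrogen sulfonation, differed by 0.69 ± 0.19 in male pups and 0.48 ± 0.19 in female pups and was not called (limma adjusted p = 0.0153 and 0.123). Of the 2 Golgi tyrosylprotein sulfotransferases, Tpst1 fell by 0.57 and 0.53 in male and female pups (limma adjusted p = 1.38e-04 and 3.85e-04).

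**Figure D4:**
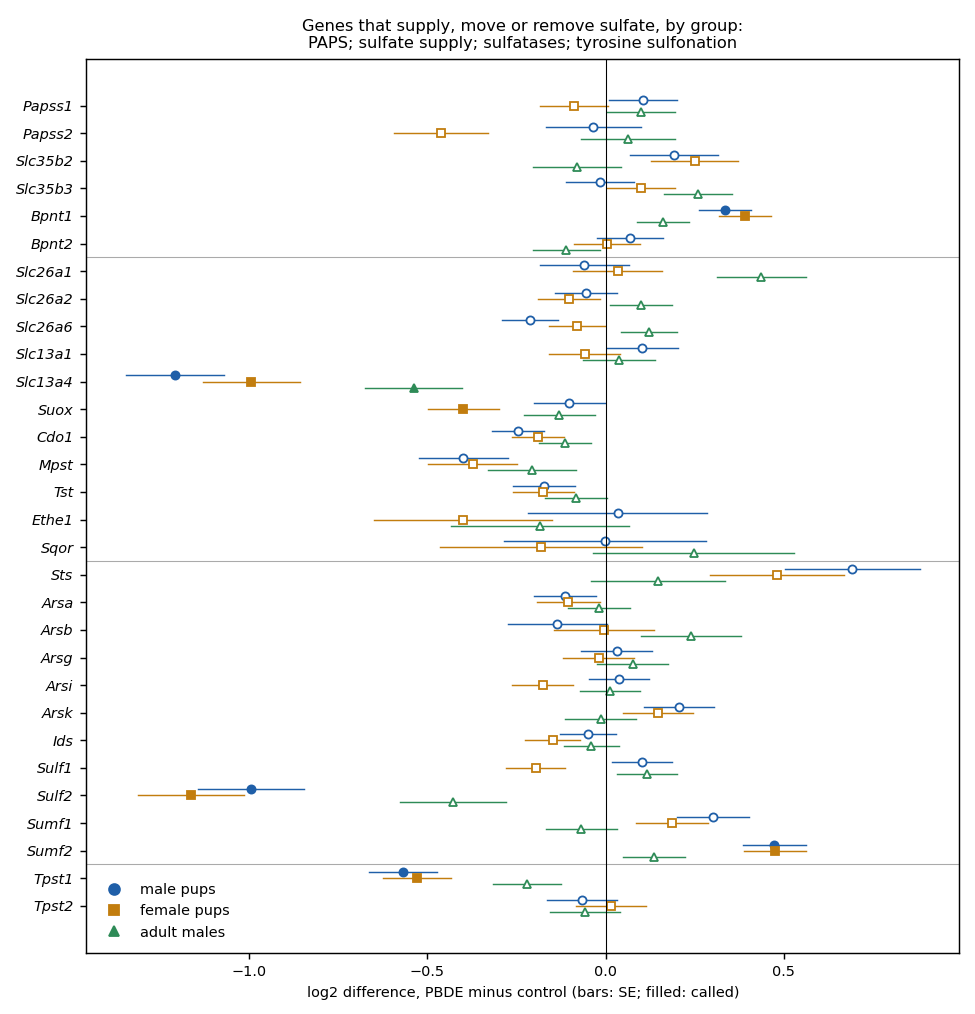
Log2 difference between PBDE and control livers (horizontal axis) for 30 genes of PAPS, sulfate supply, sulfatases and tyrosine sulfonation (vertical axis, grey lines part the groups); bars are SE and filled symbols passed the limma test. Slc13a4 at -1.21 in male pups and Sulf2 at -1.16 in female pups stand farthest to the left.

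Of 13 measured receptors and factors named for control of Sult genes, 1 rose and 2 fell in each sex of pups, and 1 rose in adults. The shares over all probe sets were 5.33% in male pups, 4.24% in female pups and 2.98% in adults. Nr1i2, the pregnane X receptor, fell by 0.58 and 0.46 in male and female pups. Nfe2l2, the oxidative stress factor NRF2, rose by 0.54 and 0.80. Nr1h4, the bile acid receptor, fell by 0.39 in male pups and rose by 0.36 in adults. Nr1i3, the constitutive androstane receptor, fell by 0.76 in female pups. Its differences of -0.59 in male pups (limma adjusted p = 0.0424) and -0.15 in adults were not called. Esr1, the oestrogen receptor, had group means between 3.62 and 3.91, below the median of all values, and was not called.

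Of 11 measured genes that handle oestrogens and steroids beside sulfonation, 4 rose and 1 fell in male pups, 5 rose and 0 fell in female pups, and 4 rose and 1 fell in adults. Cyp1a2, which oxidises oestradiol, rose by 1.16, 1.09 and 0.94 in male pups, female pups and adults. Ugt2b1, a glucuronosyltransferase, rose by 1.28, 1.07 and 1.75. The exporters of conjugates Abcc2 (1.69, 1.21 and 0.60) and Abcc3 (1.69, 1.73 and 3.81) rose in the same 3 comparisons. Abcg2, an exporter of steroid sulfates, fell by 1.53 in male pups, Cyp1b1 rose by 3.45 in female pups, and Slco1a1, an uptake carrier, fell by 0.38 in adults. Their other differences were not called. Cyp1b1 differed by 2.31 in male pups (limma adjusted p = 0.0104) and 0.02 in adults. Abcg2 differed by -0.55 in female pups and -0.61 in adults (limma adjusted p = 0.0822 and 0.0841). Slco1a1 differed by -0.19 in male pups and -0.25 in female pups.

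Some markers of other liver cells were called too. In male pups 3 of 5 sinusoidal endothelium markers fell, Stab2 by 0.79, Lyve1 by 0.47 and Fcgr2b by 0.89, with array means of the list from 9.79 to 10.05 in controls and 9.18 to 9.51 in PBDE pups; in female pups 1 of 5 fell, Fcgr2b by 0.63, with 9.76 to 10.00 and 9.30 to 9.64. For Kupffer cells and macrophages 1 of 4 fell in male pups, C1qa by 0.71. Their array means ran from 9.34 to 9.69 in male control and 9.03 to 9.26 in male PBDE pups. In adults 0 of 4 were called with limma but all 4 had an unadjusted p under 0.05, with a median of -0.43 and array means of 9.26 to 9.84 in controls and 8.73 to 9.36 in PBDE animals. Of the 4 stellate cell and fibroblast markers 1 fell in female pups, Lrat by 0.77, while the list's median was 0.10. Its array means ran from 7.44 to 8.10 in female control and 7.28 to 8.79 in female PBDE pups. Of the 3 erythroid markers 0 were called in female pups with limma, but all 3 had an unadjusted p under 0.05, with differences of 0.78, 0.78 and 0.83. Their array means ran from 6.52 to 7.11 in female controls and 7.36 to 8.03 in female PBDE pups. Of the 3 bile duct markers Epcam rose by 1.07, 0.92 and 1.13 in male pups, female pups and adults. The others were not called: Krt19 differed by -0.28, -0.32 and -0.23, and Krt7 by 0.12, -0.15 and 0.05. None of the 4 hepatocyte markers was called with limma in the 3 dose comparisons, and 1, 2 and 1 had an unadjusted p under 0.05. These markers lay high on the array scale, with Alb means of 15.43 to 15.44 against a highest value of 15.46. Whether they could show a change in the share of hepatocytes was not tested. In bulk liver, fewer cells of a type and less RNA per cell cannot be told apart. The part of these markers in the sulfotransferase differences was not tested.

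A measure of RNA integrity was compared between the same groups. The gap by which the 3' Gapdh control probe set exceeded the 5' one averaged 2.09 ± 0.65 in male PBDE pups and 1.61 ± 0.33 in their controls (SD, n = 5, exact permutation p = 0.198). Female PBDE pups had 1.93 ± 0.30 and female controls 1.26 ± 0.50 (exact p = 0.0397). PBDE adults had 1.17 ± 0.62 and adult controls 0.62 ± 0.18 (exact p = 0.0238). Adjusted over the 3 two-sided tests these exact p-values were 0.198, 0.0595 and 0.0595. With the gap as a covariate, the count of members called was the same in each of the 3 dose comparisons.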

How the data were processed

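Liver RNA was extracted from 30 rats, and per the labels' protocols 50 ng of each sample was labelled from the 3' end in 2 cycles and hybridised to an Affymetrix rat array. The deposited values are log2 signals; per the submitters' processing notes the authors used RMA, and the version of RMA is not given in the sources used here. Of the table, 57 control probe sets were kept apart, which left 31042 probe sets. The platform table gave 20826 probe sets 1 gene, 436 several and 9780 none.

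All 30 arrays entered a single limma fit (3.58.1, R 4.3.3) of 6 group means, with eBayes and Benjamini-Hochberg adjustment over all probe sets. Contrasts and false discovery rates of 0.01 (pups) and 0.05 (adults) follow the series design text, whose authors used R/maanova; 0.05 was set here for both age terms. The code was tested on simulated data. A gene's representative probe set was the one with the highest mean. Named were all 7 members, list genes called in a dose comparison, and the 5 genes likest each member by r. Papss1, Papss2, Sts, Esr1, Krt19, Krt7, Alb, Cela1, Fabp2, Cdh17 and the other Sult genes were named after their values were seen. Members and lists were chosen with earlier results of these data known. Array number limits the precision.

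Replicate numbers name no shared dam, and residuals of same-numbered arrays had a mean r of 0.00417, so they were not taken as pairs. Alternatives were other fits, normalizations and filters, a replicate block, an RNA integrity covariate and leaving out each replicate.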

Additional observations from a re-analysis of the deposited data

Results flagged for a closer look

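The dose effect on Sult1e1 and Sult1b1 differed between adult and pup males, by -5.41 and -1.97 on the log2 scale (limma adjusted p = 1.13e-07 and 2.27e-05).

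In 8 of 96 groups of 5 arrays, 1 array stood apart from the other 4, judged by its gap to the nearest array as a share of the group's range (limit 0.71); chance alone gives about 5% of groups. Among the 7 members this held for 2 of 42 groups. Sult1e1 in male PBDE pup replicate 2 was low, at 9.56 against 11.54 for the next (share 0.851). Sult1b1 in male PBDE pup replicate 4 was high, at 13.68 against 13.51 (0.784).

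Among other Sult genes, Sult2a2 in female PBDE pup replicate 1 was low, at 6.93 against 11.15 (0.894). Sult1c2a in male control pup replicate 2 was low, at 9.86 against 10.53 (0.762). Sult1d1 in female control pup replicate 5 was high, at 3.22 against 2.99 (0.930). The lower of both Sult2b1 probe sets was high in male control pup replicate 1, at 5.90 against 5.65 (0.736), and in male PBDE pup replicate 4, at 6.03 against 5.70 (0.775). The Gapdh 3' to 5' gap was high in PBDE adult replicate 5, at 2.25 against 1.04 (0.792).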

How the results depend on the processing

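Of 1132 recomputed differences of members, 1124 kept their call, 2 lost it, 6 gained it and 0 reversed; 56 changed sign where neither value was called. Both losses came with only the compared groups in the fit, for Sult1c2 in male pups (adjusted p = 0.0241) and for Sult1e1 between PBDE pups of both sexes (adjusted p = 0.101), so that the count for the latter comparison was 0. All 6 gains were of Sult1a1 in adults, giving a count of 1 with a trended robust spread (0.0478), centring on array medians (0.0479) and a filter on low values (0.0392), and 0 to 1 when 1 replicate was left out; the cause was not tested. Over all probe sets, adult calls fell from 924 to 269 with only the adult groups, and to 597 without PBDE adult replicate 4. Calls between male and female PBDE pups fell from 14 to 8 with only those groups. Age-by-dose calls fell from 579 to 365 without male control pup replicate 5, 376 without male PBDE pup replicate 4 and 373 without PBDE adult replicate 4. Age calls fell from 7146 to 4305 with the RNA integrity covariate. The PBDE minus control difference of the Gapdh gap, 0.671 in female pups and 0.547 in adults, ran from 0.541 to 0.880 and from 0.276 to 0.657 when 1 replicate was left out; with Actb in place of Gapdh the adult difference was 0.579 (exact p = 0.0714). A fit with a replicate block gave 4, 3, 0, 0, 1, 0, 2 and 3 called members for the male, female and adult dose, control and PBDE sex, sex-by-dose, age-by-dose and age comparisons, as without the block. Averaging the probe sets of a gene gave no other value, since each member has 1. The low filter removed Sult2a1 and Sult4a1.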
